A study of Homo sapiens with 12 samples.

Results

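Vitamin D signalling was described from 5 genes of the 19973 in the table: CYP24A1, CYP27B1, VDR, RXRA and RXRB. The genes were taken by symbol, and they had been picked for their FPKM in these libraries, so their levels are given as a description with no test. FPKM divides the reads on a gene by its length and by the total of the library, so that levels of different genes can be set side by side. The libraries were made from H460 and A549, human NSCLC (non-small cell lung carcinoma) cell lines. The genotype label of both is WT, meaning no engineered change is named, while the study describes both lines as carrying inactivated KEAP1. Each line was either non-treated (control) or given ISP-I, isovalerylspiramycin I, a macrolide component of carrimycin, at 10 μM for 48 h. There were 3 libraries per group and 12 in all. The control cells carried no treatment, and a vehicle is not named in the labels. The labels speak of replicates without saying that they were separate cultures, so the p-values below measure the spread between these libraries only, which may be technical.

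Vitamin D itself is inert. Hydroxylation in the liver makes the circulating storage form, and CYP27B1, a mitochondrial P450 best known from the kidney but also present in lung epithelium, converts it into the active hormone calcitriol. Calcitriol binds VDR, a nuclear receptor that works as a heterodimer with a retinoid X receptor (RXRA, RXRB or RXRG) on paired AGGTCA-like half-sites. CYP24A1, another mitochondrial P450, breaks calcitriol down, is itself among the genes that VDR induces most strongly, and is often abundant in lung adenocarcinoma.

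Of the 5 genes, RXRA and RXRB have an entry in the RefSeq table of promoters used here. The window in front of RXRA is shown because RXRA is the receptor partner whose level differed most in H460 below, and its letters hold many copies of the GC box. It covers chr9:134326205-134326454 on the plus strand of GRCh38.p14. These 250 bases lie before the main transcription start but inside the span of the RXRA gene, which begins at chr9:134317098. Capitals mark GGGCGG, the core of the GC box.

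RXRA promoter: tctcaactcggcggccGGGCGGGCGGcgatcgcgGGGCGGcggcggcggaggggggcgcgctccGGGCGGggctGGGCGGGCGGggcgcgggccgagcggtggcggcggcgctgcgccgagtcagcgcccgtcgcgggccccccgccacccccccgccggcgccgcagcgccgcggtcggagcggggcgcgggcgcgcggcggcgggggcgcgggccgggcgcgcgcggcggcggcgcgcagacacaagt

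This window had a GC content of 89.2%, against a median of 58.0% over 35116 promoter windows of the same length, of which 0.0342% were as rich. GGGCGG occurred 6 times on both strands together, with overlapping copies counted. At least 1 copy was present in 42.6% of all windows and at least as many in 2.22%. AGGTCA, the half-site of nuclear receptors, occurred 0 times on either strand, and 12.1% of all windows held it.

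Depth ranged from 14225849 to 17874422 reads per library. Between replicate libraries the chi-square of the reads was 2.95 to 92.0 per degree of freedom, above the 1 that sampling alone gives, and none was counted as a repeat of another. Library 3 of the A549 controls and library 3 of H460 with ISP-I each stood apart from the other libraries of their group. Keratins KRT8, KRT18 and KRT19 marked both lines as epithelial, but EPCAM and CDH1 stood at 0.0473 ± 0.0597 and 0 FPKM in H460 controls (SD, n = 3). Of 8 markers of blood, fibroblast and endothelial cells, 6 were under 0.1 FPKM in H460 controls and 7 in A549 controls, and PTPRC, CD3E and CD68 were at or near 0 throughout. Their summed level went from 1.42 to 1.92 FPKM up to 2.98 to 3.44 FPKM with ISP-I in H460, chiefly PDGFRB, and from 0.744 to 1.11 FPKM up to 1.40 to 1.64 FPKM in A549. The summed level of the 5 epithelial markers went from 924.1 to 1252 FPKM down to 628.1 to 659.2 FPKM with ISP-I in A549, chiefly KRT8 (649.9 ± 91.4 and 323.6 ± 9.28 FPKM), and overlapped in H460 at 355.5 to 431.6 and 327.3 to 414.9 FPKM. The part of these shifts in the values of the vitamin D genes was not tested.

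CYP24A1 (ENSG00000019186, chr20:54153446-54173986, minus strand, hg38) was a highly expressed gene in A549 and close to absent in H460. In A549 controls it stood at 238.9, 248.4 and 232.7 FPKM, among the 91 to 113 most abundant genes of each library. With ISP-I it stood at 29.5, 28.6 and 27.2 FPKM, at ranks 1458 to 1628. The groups did not overlap, and the mean went from 240.0 ± 7.91 to 28.4 ± 1.16 FPKM (SD, n = 3), 8.44-fold lower. As the RNA came from whole cultures, fewer cells that express the gene and less of its RNA per cell cannot be told apart.

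In H460 controls CYP24A1 was at 0.732, 0.958 and 1.08 FPKM, which rested on 42, 58 and 64 reads. With ISP-I the values were 0.0701, 0.0301 and 0.101 FPKM, from 5, 2 and 6 reads. Again no ISP-I library reached the lowest control, although both groups were low. The mean of 0.922 ± 0.175 FPKM became 0.0672 ± 0.0357 FPKM, 13.7-fold lower. On summed reads per depth, with 164 reads in controls and 13 with ISP-I, the ratio was 14.0. On the log2(FPKM + 1) scale used for the tests of other genes, this difference was -0.85 in H460 and -3.03 in A549, because a pseudocount of 1 draws values under 1 FPKM together. In order of level, A549 control was followed by A549 with ISP-I, H460 control and H460 with ISP-I, with no overlap between neighbours. Control A549 cells held 260.3 times the CYP24A1 of control H460 cells.

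**Figure D1:**
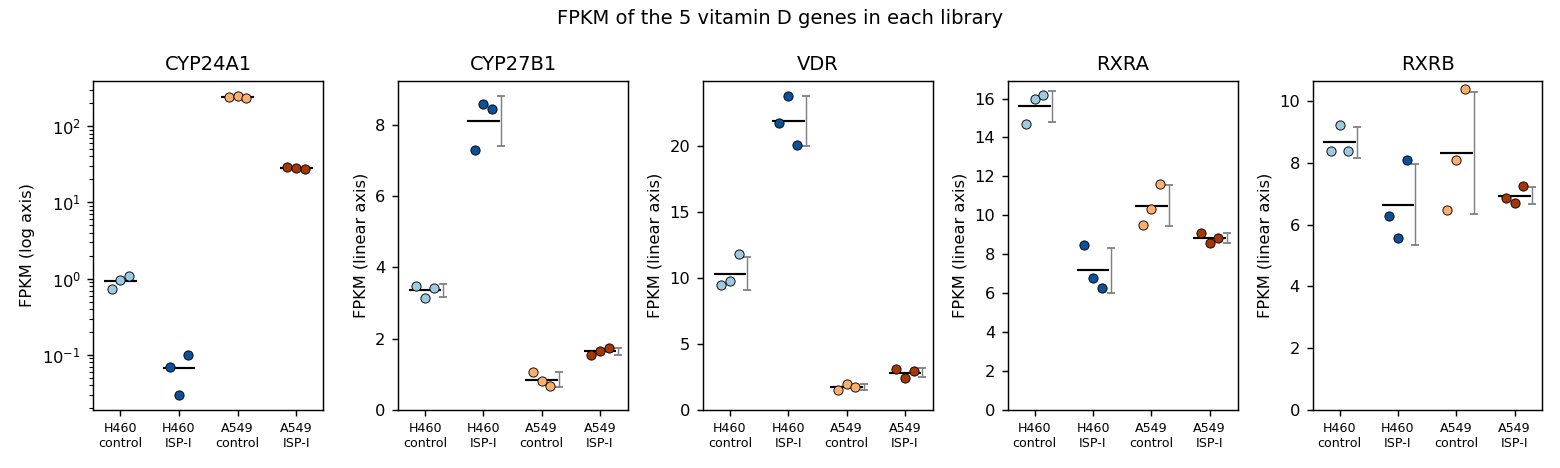
FPKM of CYP24A1 (log axis) and of CYP27B1, VDR, RXRA and RXRB (linear axes from 0) in the 12 libraries; points are libraries, black lines are means of the 3 libraries of a group, and grey bars, left out on the log axis, are SD. CYP24A1 had means of 240.0 FPKM in A549 controls and 28.4 FPKM in treated A549, while CYP27B1 and VDR were higher with ISP-I in both lines and RXRA lay between 6.24 and 8.49 FPKM in treated H460 against 14.7 to 16.2 FPKM in its controls.

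CYP27B1 (ENSG00000111012, chr12:57762334-57768986, minus strand), which makes calcitriol, went the other way. In H460 it was at 3.49, 3.15 and 3.41 FPKM in controls and at 7.31, 8.59 and 8.45 FPKM with ISP-I. That is 2.42 times the control mean, 3.35 ± 0.180 against 8.12 ± 0.705 FPKM, with no overlap. A549 held less of it, at 1.07, 0.808 and 0.660 FPKM in controls and 1.53, 1.65 and 1.74 FPKM with ISP-I, or 1.94 times as much. The order of the groups was thus H460 with ISP-I, H460 control, A549 with ISP-I and A549 control, and no neighbours overlapped. CYP27B1 shares 516 bases with METTL1, a tRNA methyltransferase gene on the same strand, so reads of the shared bases cannot be assigned to either with certainty. METTL1 was at 15.7 ± 1.98 FPKM in H460 controls and 21.4 ± 5.16 FPKM with ISP-I (adjusted p = 0.0612), and at 14.2 ± 1.98 and 20.5 ± 1.58 FPKM in A549 (log2 difference 0.51, adjusted p = 0.00375).

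The receptor VDR (ENSG00000111424, chr12:47841537-47943048, minus strand) was higher with ISP-I in both lines and far more abundant in H460. H460 controls had 9.47, 9.79 and 11.8 FPKM, and H460 with ISP-I had 21.7, 23.8 and 20.1 FPKM. The treated mean was 2.11 times the control mean, 21.9 ± 1.88 against 10.3 ± 1.25 FPKM, and the groups did not overlap. For A549 the values were 1.52, 1.92 and 1.74 FPKM in controls and 3.05, 2.40 and 2.91 FPKM with ISP-I, which is 1.61 times the control mean and again free of overlap. Control H460 cells carried 5.99 times the VDR of control A549 cells. The line with abundant CYP24A1 was therefore the one with less VDR and less CYP27B1.

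RXRA (ENSG00000186350, chr9:134317098-134440585, plus strand), the RXR gene with the highest mean FPKM in each group, was lower with ISP-I. In H460 it stood at 14.7, 16.0 and 16.2 FPKM in controls and at 8.49, 6.75 and 6.24 FPKM after treatment. The treated mean was 0.458 of the control mean, 7.16 ± 1.18 against 15.6 ± 0.783 FPKM. A549 showed 9.50, 10.3 and 11.6 FPKM in controls and 9.07, 8.58 and 8.84 FPKM with ISP-I. Its groups did not overlap either, but the ratio was 0.841.

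RXRB (ENSG00000204231, chr6:33193588-33200665, minus strand) differed least between the 4 group means. H460 controls were at 8.38, 9.24 and 8.39 FPKM and treated cells at 6.27, 5.55 and 8.09 FPKM, a ratio of 0.766 without overlap. In A549 the controls ran from 6.48 over 8.10 to 10.4 FPKM and the treated libraries were at 6.86, 6.71 and 7.25 FPKM, inside that range. The highest control was library 3, which stood apart over all genes, and without it the log2 ratio went from -0.26 to -0.07. In control cells the lines overlapped, at 8.67 ± 0.495 FPKM in H460 and 8.33 ± 1.98 FPKM in A549. RXRB overlaps SLC39A7, a zinc transporter gene on the opposite strand, by 221 bases, and the strand setting of the counting is not stated.

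RXRG, the third partner, had 0 reads in all 6 control libraries. With ISP-I there were 8, 9 and 5 reads in H460 and 0, 1 and 9 reads in A549, so its level stayed at or below 0.233 FPKM. RXRA and RXRB thus made up nearly the whole RXR pool in every library.

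In H460 4 of the 5 genes had no overlap between control and ISP-I together with means that differed by more than 2-fold. Among all 13423 genes tested in that line, 45.6% met both conditions. In A549 1 of the 5, CYP24A1, met both, against 19.9% of 13705 genes. Since the genes were picked from these values, nothing is read from the counts.

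One property of the H460 libraries bears on the values in that line. Over all genes tested the median difference of log2(FPKM + 1) was -0.15 in H460 and 0.02 in A549. Scaling by median-of-ratios factors moved the H460 median by 0.15 to 0.01. The factors were 1.01 to 1.04 in H460 controls and 0.842 to 0.855 with ISP-I. On ratios of means, which carry no pseudocount, the shift was larger. So scaled, the log2 ratio of RXRA in H460 went from -1.13 to -0.84, under 2-fold, and that of RXRB from -0.39 to -0.10. That of VDR went from 1.08 to 1.36 and that of CYP27B1 from 1.28 to 1.56. All kept their direction.

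Ratios within a library do not depend on that scaling. CYP24A1 exceeded CYP27B1 by 223.2 to 352.7 times in A549 controls and by 15.6 to 19.3 times with ISP-I. In H460 the balance lay on the other side, with CYP27B1 at 3.17 to 4.77 times CYP24A1 in controls and 83.4 to 285.4 times with ISP-I. Both lines thus held less inactivating enzyme RNA per activating enzyme RNA when treated, and the A549 libraries still had CYP24A1 in excess. VDR stood at 0.388 to 0.480 of the summed RXR level in H460 controls and at 1.39 to 1.91 with ISP-I. The corresponding range was 0.0791 to 0.104 in A549 controls and 0.157 to 0.191 with ISP-I. The RNA level of VDR was thus below that of the summed RXR everywhere except in treated H460. These ratios are of RNA and do not give the amounts of the proteins. The share of RXRA within the RXR pool was 63.4% to 65.8% in H460 controls and 43.2% to 56.9% after treatment, and 52.8% to 59.5% in A549 controls and 54.2% to 56.9% with ISP-I.

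**Figure D2:**
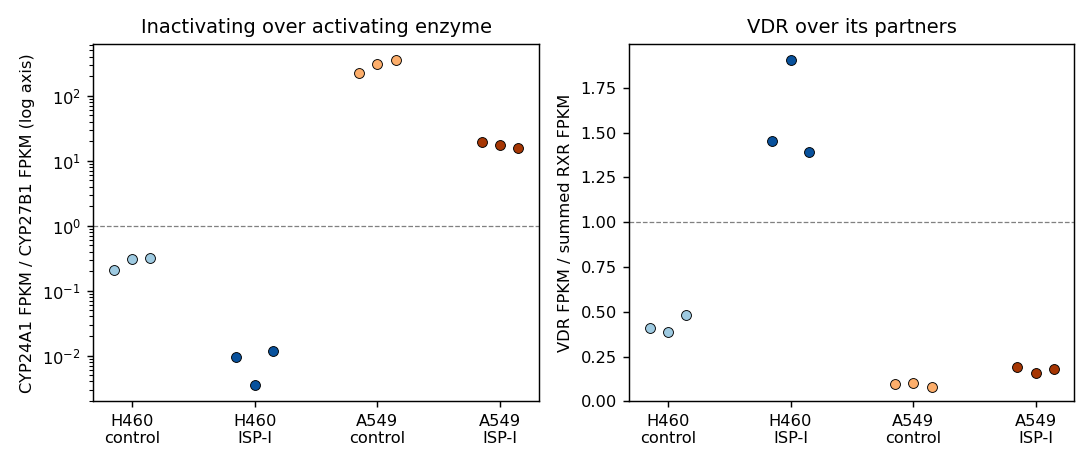
Ratio of CYP24A1 to CYP27B1 FPKM (left, log axis) and of VDR to the summed RXRA, RXRB and RXRG FPKM (right, linear axis from 0), 1 point per library and 3 per group; dashed lines mark equal levels. The left ratio is lower with ISP-I in both lines, and the right ratio passes 1 in the 3 treated H460 libraries alone (1.39 to 1.91).

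The order of the genes within a group followed from this. H460 controls ranked RXRA, VDR, RXRB, CYP27B1 and CYP24A1 from high to low, with no overlap between neighbours. After ISP-I VDR led at 21.9 FPKM, and CYP27B1, RXRA and RXRB, at means of 8.12, 7.16 and 6.64 FPKM, overlapped as neighbours. In A549 CYP24A1 led in both conditions. RXRA and RXRB came next, overlapping in controls and not with ISP-I, and then VDR and CYP27B1.

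CYP24A1 and CYP27B1 belong to the cytochrome P450 family, whose members oxidise steroids, drugs and other lipophilic compounds. CYP24A1 was the most abundant of the 55 P450 genes in A549 controls, where it made up 73.9% to 74.5% of their summed FPKM. With ISP-I its share was 25.4% to 28.4%, and its level of 28.4 ± 1.16 FPKM stood beside 26.6 ± 2.79 FPKM for CYP1B1, which metabolises oestrogens and polycyclic hydrocarbons. In H460 CYP24A1 was a minor P450 at 0.927% to 1.29% of the sum in controls and 0.0215% to 0.0783% with ISP-I. Without CYP24A1 the P450 sum was 82.4 to 84.8 FPKM in A549 controls and 72.1 to 80.1 FPKM with ISP-I, and 73.0 to 84.7 FPKM in H460 controls and 129.4 to 139.9 FPKM with ISP-I.

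The other P450 genes were open to a test (limma on log2(FPKM + 1), Benjamini-Hochberg adjusted over all genes, called past 2-fold at an adjusted p under 0.05). Among all genes, 10.5% were called higher with ISP-I and 15.2% lower in H460 (1409 and 2047 genes; 1954 and 1504 with median-of-ratios scaling), and 4.20% higher and 3.51% lower in A549. Of the other P450 genes 1 of 18 rose in H460, and 2 rose and 2 fell of 25 in A549. In H460 5 were higher and 8 lower at an adjusted p under 0.05 with no fold threshold, against 3711 and 5576 of all 13423 genes tested. Voom on recovered reads, which adds no pseudocount of 1 FPKM, called 4 of 16 higher and 4 lower. Over all genes voom called 3106 higher and 2728 lower in that line. The median log2 difference was -0.09 in H460, and in A549 it rounded to 0.

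CYP1A1, the classical target of the aryl hydrocarbon receptor, rose in both lines. It went from 0.634 ± 0.0937 to 68.6 ± 1.85 FPKM in H460 (log2 fold change 5.41, SE 0.105, adjusted p = 3.51e-08) and from 0.372 ± 0.188 to 18.3 ± 2.51 FPKM in A549 (3.81, adjusted p = 5.65e-07). CYP2S1, an extrahepatic P450 and the runner-up to CYP24A1 in A549 controls, fell there from 34.8 ± 3.46 to 7.21 ± 0.133 FPKM (log2 fold change -2.12, adjusted p = 8.11e-07). In H460 it went from 1.35 ± 0.264 to 0.311 ± 0.181 FPKM without overlap, a ratio of 0.230 against 0.207 in A549, but at -0.85 on the log2(FPKM + 1) scale it was not called (adjusted p = 0.000333). CYP4F11 fell from 3.64 ± 0.318 to 1.06 ± 0.0308 FPKM in A549 (-1.17, adjusted p = 1.13e-05), and CYP4F2 rose from 0.0146 ± 0.0252 to 2.35 ± 0.344 FPKM (1.72, adjusted p = 2.65e-06). Both belong to a fatty acid hydroxylase cluster of similar sequence, in which reads may be shared between copies. CYP1B1, in contrast, stood at 23.6 ± 2.71 and 27.2 ± 6.06 FPKM in H460 and at 21.7 ± 3.37 and 26.6 ± 2.79 FPKM in A549, uncalled in both.

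**Figure D3:**
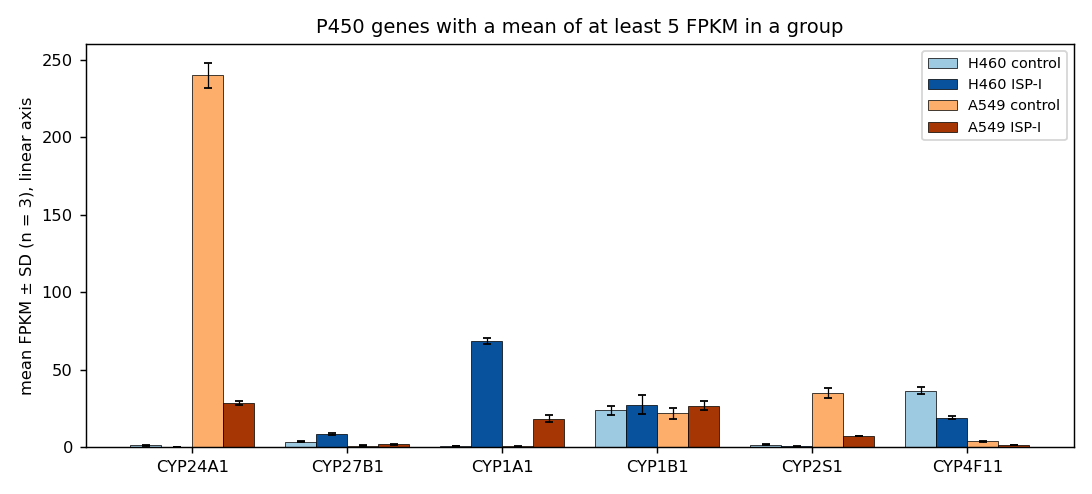
Mean FPKM with SD (n = 3 libraries, linear axis from 0) in the 4 groups for CYP24A1, CYP27B1 and the other P450 genes with a group mean of at least 5 FPKM. CYP24A1 in A549 controls (240.0 FPKM) is the tallest bar, the next being CYP1A1 in treated H460 (68.6 FPKM).

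The rest of the pathway was read from lists written by hand from general knowledge, with earlier results of these data known. For the enzymes and carriers that supply or take up vitamin D, 0 of 8 genes tested rose and 1 fell in H460. In A549 0 of 7 were called. Among all genes tested, 25.7% were called in either direction in H460 and 7.71% in A549. At an adjusted p under 0.05 with no fold threshold, 2 genes of H460 were higher and 4 lower, and in A549 1 was higher and 3 were lower. Over all genes these counts were 3711 and 5576 of 13423 in H460, and 4185 and 3702 of 13705 in A549. With limma voom on recovered reads 2 were called in H460 and 1 in A549, each of them higher. Over all genes voom called 3106 and 1354 higher. The median log2 difference was -0.30 in H460 and -0.21 in A549. The gene that fell was DHCR7, which uses up the cholesterol precursor from which skin forms vitamin D, from 24.1 ± 0.737 to 9.96 ± 0.605 FPKM (log2 fold change -1.20, SE 0.105, adjusted p = 1.70e-05). With median-of-ratios scaling it was at -0.94, under the fold. CYP2R1, singled out after its values were seen because it makes the storage form, stood at 2.26 ± 0.208 FPKM in H460 controls and 1.27 ± 0.223 FPKM with ISP-I (-0.53, adjusted p = 0.00287), short of 2-fold.

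Coactivators and corepressors are recruited by VDR and RXR to switch target genes on or off. Of 18 such genes 4 rose and 3 fell in H460, and 1 rose and 1 fell in A549, with median log2 differences of 0.21 and -0.20. Called in either direction were 38.9% in H460 and 11.1% in A549, against 25.7% and 7.71% of all genes tested. SNW1, a splicing-linked coactivator of VDR, rose in both lines, from 22.7 ± 1.18 to 80.3 ± 12.3 FPKM in H460 (log2 fold change 1.77, adjusted p = 9.47e-06) and from 23.6 ± 3.62 to 56.7 ± 3.04 FPKM in A549 (1.24, adjusted p = 4.26e-05). TBL1X, an exchange factor of the NCOR corepressor complex, fell in both, from 13.3 ± 0.944 to 0.810 ± 0.120 FPKM in H460 (-2.98, adjusted p = 3.58e-07) and from 13.2 ± 0.233 to 3.18 ± 0.246 FPKM in A549 (-1.76, adjusted p = 1.19e-06). These were the 2 coregulators called in A549.

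H460 showed further calls on both sides. NCOA3, a p160 coactivator, rose from 9.91 ± 0.569 to 36.5 ± 9.95 FPKM (log2 fold change 1.75, adjusted p = 5.58e-05), and NRIP1, a corepressor that binds ligand-bound receptors, from 1.33 ± 0.387 to 9.65 ± 4.79 FPKM (2.11, adjusted p = 0.000268). DDX5, an RNA helicase, was the other gene that rose, a name given here after its values were seen. HDAC3, the deacetylase of the NCOR complex, fell from 12.4 ± 0.351 to 5.08 ± 0.960 FPKM (-1.15, adjusted p = 0.000109), and MED14, the backbone of Mediator, fell to 5.17 ± 1.24 FPKM (-1.09, adjusted p = 0.000333). With median-of-ratios scaling both stayed lower but under 2-fold, at -0.91 and -0.85, and MED14 was also under it without H460 ISP-I library 3 (-0.95).

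RXR serves other nuclear receptors as well. Of these and RXRG, 2 of 13 genes tested rose and 4 fell in H460, and 0 of 14 rose and 1 fell in A549. The medians were -0.32 and 0.02. Called in either direction were 46.2% in H460 and 7.14% in A549, against 25.7% and 7.71% of all genes tested. In A549 7 genes were higher and 6 lower at an adjusted p under 0.05 with no fold threshold, against 4185 and 3702 of all 13705 genes. Voom called 1 higher and 3 lower there, against 1354 and 1239 over all genes. The thyroid hormone receptor THRA fell in both lines, from 7.10 ± 0.751 to 0.365 ± 0.00391 FPKM in H460 (log2 fold change -2.57, adjusted p = 5.40e-07) and from 4.87 ± 0.433 to 1.60 ± 0.0927 FPKM in A549 (-1.17, adjusted p = 1.40e-05).

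The retinoic acid receptors split in H460. RARG fell from 9.90 ± 0.921 to 3.01 ± 0.359 FPKM (log2 fold change -1.44, adjusted p = 1.44e-05) and RARB from 2.42 ± 0.252 to 0.277 ± 0.0353 FPKM (-1.42, adjusted p = 3.01e-06), whereas RARA rose from 3.89 ± 0.857 to 9.34 ± 0.210 FPKM (1.09, adjusted p = 0.000168). The rise of RARA was 0.98, just under 2-fold, without H460 control library 2. NR1H3, the oxysterol receptor LXR alpha, fell from 3.20 ± 0.333 to 0.965 ± 0.149 FPKM (-1.10, adjusted p = 3.63e-05; -0.94 with median-of-ratios scaling). NR4A1, an orphan receptor of the immediate-early class, rose from 7.06 ± 0.932 to 27.0 ± 1.67 FPKM (1.80, adjusted p = 4.70e-06). In A549 NR4A1 went the other way, from 1.64 ± 0.0567 to 0.787 ± 0.128 FPKM, uncalled at -0.57 (adjusted p = 0.000387).

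Genes described elsewhere as VDR targets moved in both directions. In H460 8 of 32 tested rose and 5 fell, and in A549 7 rose and 2 fell of 32, with median log2 differences of -0.06 and -0.11. Called in either direction were 40.6% in H460 and 28.1% in A549, against 25.7% and 7.71% of all genes tested. The lists were written with earlier results known, so nothing is read from these shares. CDKN1A and GADD45A, also known from the p53 response, were among the genes that rose in both lines. DUSP10, a phosphatase of stress kinases, went from 0.997 ± 0.184 to 58.2 ± 9.17 FPKM in H460 (log2 fold change 4.88, adjusted p = 1.20e-07) and from 2.11 ± 0.504 to 6.35 ± 0.551 FPKM in A549 (1.25, adjusted p = 7.82e-05). TXNIP, the thioredoxin inhibitor that carries the alias vitamin D upregulated protein, rose from 17.3 ± 1.75 to 186.2 ± 10.3 FPKM in H460 (3.36, adjusted p = 3.38e-07) and from 0.0830 ± 0.0409 to 3.25 ± 0.520 FPKM in A549 (1.96, adjusted p = 2.71e-06).

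HBEGF, a ligand of the EGF receptor, rose from 3.03 ± 0.729 to 22.7 ± 0.989 FPKM in H460 (log2 fold change 2.57, adjusted p = 1.96e-06) and from 1.57 ± 0.165 to 6.05 ± 0.901 FPKM in A549 (1.45, adjusted p = 1.93e-05). IL1RL1, an interleukin receptor, rose in H460 from 0.180 ± 0.0604 to 10.8 ± 1.57 FPKM (3.31, adjusted p = 3.60e-07) and was at 0.00408 and 0.0738 FPKM in A549 control and ISP-I means. The transcription factor CEBPB rose in A549 from 27.9 ± 2.54 to 132.9 ± 1.38 FPKM (2.21, adjusted p = 5.65e-07) and was called higher in H460 too (1.69, adjusted p = 0.000463). CDH1, the adhesion protein E-cadherin, which calcitriol is known to induce in other carcinoma cells, fell in A549 from 4.90 ± 0.245 to 0.756 ± 0.153 FPKM (-1.75, adjusted p = 2.74e-06) and was near 0 in H460. The 5 targets that fell in H460, named after their values were seen, were LRP5, NINJ1, CD14, HILPDA and BMP6, with log2 fold changes of -2.36, -1.87, -1.62, -1.59 and -1.16. These are values before scaling, and DHCR7, further from 0 than BMP6 at -1.20, lost its call with median-of-ratios scaling (-0.94). LRP5, a Wnt co-receptor, fell in A549 too (-1.03, adjusted p = 1.77e-05).

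Vitamin D governs calcium and phosphate balance. Of the genes of mineral transport and its hormones, 2 of 10 tested rose and 1 fell in H460, where 25.7% of all genes were called in either direction, and in A549 0 of 10 were called, against 7.71%. There 2 were higher and 2 lower at an adjusted p under 0.05 with no fold threshold, against 4185 and 3702 of all 13705 genes. Voom called 1 higher in that line, against 1354 over all genes. The medians were 0.20 and -0.05. ATP2B4, a calcium pump of the plasma membrane, fell in H460 from 5.19 ± 0.281 to 0.648 ± 0.0835 FPKM (log2 fold change -1.91, adjusted p = 1.37e-06). FGFR1, the receptor through which the phosphate hormone of bone acts with klotho, rose from 3.90 ± 0.139 to 10.5 ± 0.804 FPKM (1.23, adjusted p = 1.81e-05), and PTHLH, the parathyroid hormone-like peptide, from 0.601 ± 0.0306 to 2.62 ± 0.462 FPKM (1.17, adjusted p = 2.57e-05).

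**Figure D4:**
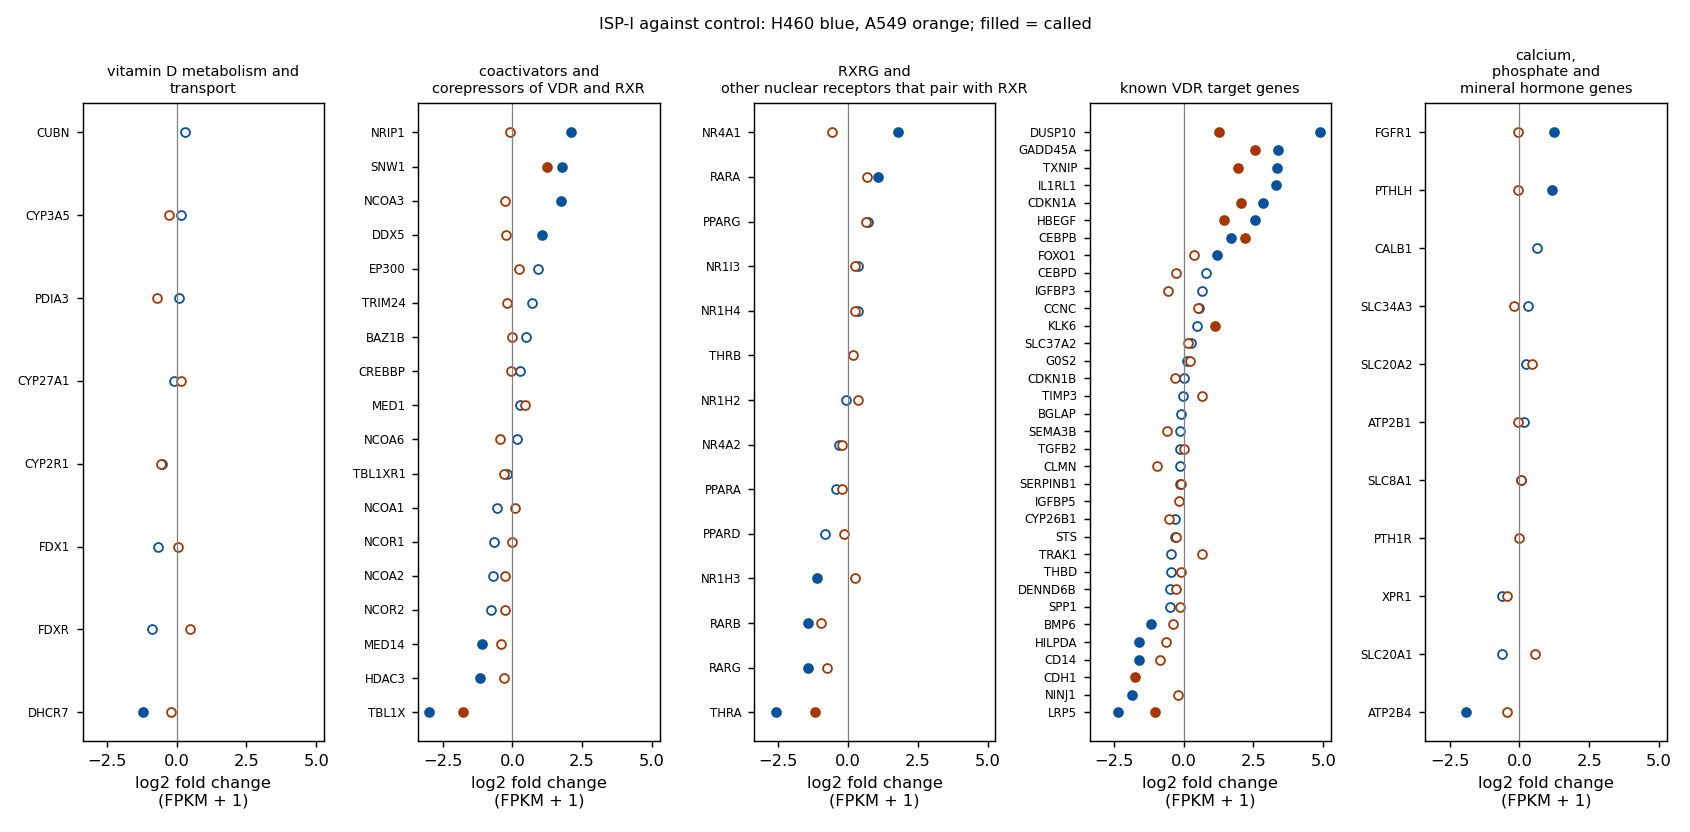
Log2 fold change of ISP-I against control on the log2(FPKM + 1) scale for each gene tested in the 5 pathway lists, H460 in blue and A549 in orange; filled points were called past 2-fold at an adjusted p under 0.05. SNW1, TBL1X and THRA are filled in both lines, and most filled points of the coregulator and receptor panels belong to H460.

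Across all genes the ISP-I change differed between the lines for 16.0% (827 more positive in H460 and 1407 more negative; 1298 and 825 with median-of-ratios scaling). For the lists this test called 1 of 8 supply genes, 4 of 18 coregulators, 3 of 14 receptors, 10 of 32 targets, 4 of 11 mineral genes and 3 of 23 other P450 genes. Control H460 was called higher than control A549 for 5.64% of genes and lower for 8.78%, a comparison that shares its control libraries with those above. It called 15 of 32 VDR targets, 6 higher in H460 and 9 lower.

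The genes with a pattern most like that of CYP24A1 were also looked up. The 10592 genes compared averaged 1 FPKM or more. Likeness was measured as the root mean square difference of centred log2(FPKM + 1) over the 12 libraries, for which the median gene was at 3.10. A gene that did not vary at all would stand at 3.14. The nearest was ALDH1A1, a retinal dehydrogenase, at 0.390, followed by ITGB4, an integrin of hemidesmosomes, at 0.656, CEACAM6, an adhesion protein, at 0.685, GPX2, a glutathione peroxidase, at 0.861 and WNT7B, a Wnt ligand, at 0.876. ALDH1A1 had means of 1651 ± 245.2 and 359.8 ± 10.2 FPKM in A549 control and ISP-I cells and 18.6 ± 2.31 and 6.63 ± 0.884 FPKM in H460. ITGB4 stood at 70.8 ± 2.50 and 18.2 ± 0.424 FPKM in A549, and CEACAM6 at 66.6 ± 1.39 and 10.4 ± 0.814 FPKM. WNT7B differed less with ISP-I, at 72.4 ± 6.74 and 42.2 ± 1.10 FPKM in A549. In H460 WNT7B was at 0.0399 and 0.0934 FPKM, so its likeness rests mainly on the contrast between the lines. ITGB4 (0.235 and 0.129 FPKM), CEACAM6 (0.0459 and 0.0668 FPKM) and GPX2 (0.602 and 0.335 FPKM) were also under 1 FPKM in both H460 groups. Their likeness therefore says little of a change with ISP-I in that line. Each of the 5 had its highest mean in A549 controls, a lower one in A549 with ISP-I and still lower ones in H460. In H460 controls ALDH1A1 nevertheless stood above VDR, at 18.6 against 10.3 FPKM. With ISP-I ALDH1A1 stood below VDR there, at 6.63 against 21.9 FPKM. The 12 libraries fall into 4 groups, so likeness follows the group means.

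**Figure D5:**
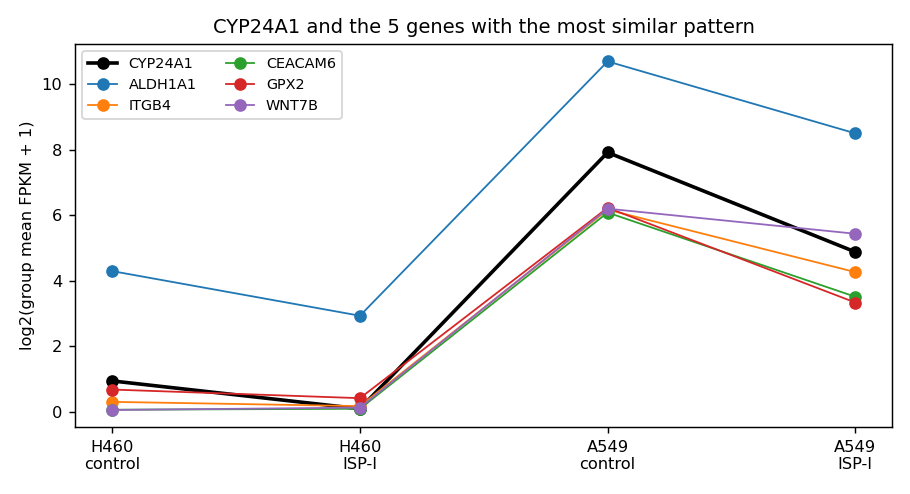
Log2(group mean FPKM + 1) of CYP24A1 (black) and the 5 genes with the most similar pattern in the 4 groups. Each line peaks in A549 controls, from 66.6 FPKM for CEACAM6 to 1651 FPKM for ALDH1A1.

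CYP24A1 has no overlapping neighbour on chromosome 20. PFDN4, a prefoldin subunit 34100 bases away, was at 21.7 ± 3.10 and 25.2 ± 1.55 FPKM in A549 (log2 difference 0.22, adjusted p = 0.106). In H460 PFDN4 was at 19.1 ± 1.06 and 13.7 ± 2.48 FPKM (-0.46, adjusted p = 0.0163), lower but short of 2-fold. BCAS1, on the other side, was low throughout but highest where CYP24A1 was, at 0.240 ± 0.116 FPKM in A549 controls, 0.0540 ± 0.0148 FPKM with ISP-I (log2 difference -0.23, adjusted p = 0.0248, short of 2-fold on that scale) and 0.00820 ± 0.0142 FPKM in H460 controls. VDR lies between genes that fell in H460. TMEM106C fell in H460 from 38.7 ± 2.42 to 13.3 ± 2.19 FPKM (-1.48, adjusted p = 2.57e-05) and in A549 from 35.5 ± 3.91 to 15.3 ± 0.685 FPKM (-1.16, adjusted p = 1.84e-05). HDAC7, a class II deacetylase 8404 bases from VDR, fell in H460 from 10.4 ± 0.864 to 2.83 ± 0.292 FPKM (-1.57, adjusted p = 7.41e-06) and was at -0.54 in A549. Next to RXRA, WDR5 fell in H460 from 43.8 ± 3.24 to 21.1 ± 2.54 FPKM (-1.02, adjusted p = 0.000134) and COL5A1 in A549 from 26.5 ± 0.857 to 5.18 ± 0.273 FPKM (-2.15, adjusted p = 3.86e-07). WDR5 was barely past 2-fold before scaling, and DHCR7, at -1.20, lost its call with median-of-ratios scaling (-0.94). The neighbours of CYP27B1 and RXRB were MARCHF9, EEF1AKMT3, COL11A2 and HSD17B8, with METTL1 and SLC39A7 overlapping. Their log2 differences ran from -0.55 to 0.99, and none was called. COL11A2 nevertheless went from 0.147 ± 0.0355 to 1.28 ± 0.141 FPKM in H460 (0.99, adjusted p = 8.73e-06). In A549 it went from 0.262 ± 0.0265 to 1.49 ± 0.220 FPKM (0.98, adjusted p = 2.50e-05). It was just short of 2-fold on the log2(FPKM + 1) scale, where the pseudocount of 1 draws such low values together.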

How the data were processed

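RNA of 12 libraries was sequenced in paired ends. The authors' methods and processing notes name FastQC, HISAT2, the human build hg38 and HTSeq 0.9.1. The deposited values are FPKM, that is counted reads scaled by gene length and library total. The annotation version and the strand setting are not given in the sources used here. The column of gene length is in bases. The deposited FPKM were whole multiples of a single read for 100% of values (tolerance 0.01 reads), which gave the depth and the reads quoted. Of the lines, 4 that name no gene were left out.

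Column names give line, treatment and a running number from 1 to 6 within the line that is not tied to the replicate numbers of the labels, so each library took its number from its place among the columns of its group. The 5 genes and all gene lists were chosen with earlier results of these data known. Within each line, log2(FPKM + 1) was fitted with limma 3.58.1 (R 4.3.3) with a mean-variance trend for genes averaging 0.1 FPKM or more. Called genes passed 2-fold and a Benjamini-Hochberg adjusted p of 0.05 over all genes tested. The difference between lines was the interaction in a fit of all 12. Fits were tested on simulated data. The study also used 2-fold and 0.05, but its test for DEGs is not named, and here the fold is on log2(FPKM + 1), which genes near or under 1 FPKM pass less easily.

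Named were the 5 genes, up to 6 called genes per list and line that averaged 1 FPKM or more and did not overlap, P450 genes averaging 5 FPKM or more in a group, the 5 genes most like CYP24A1, adjoining genes and RXRG. FOXO1, CDKN1A and GADD45A were meant for counts only. Alternatives were a pseudocount of 0.1, a filter at 1 FPKM, none at all, median-of-ratios scaling, limma voom on recovered reads (at least 10 in 3 libraries), fitting all 12 libraries together, and dropping each library in turn. Motif counts used RefSeq promoter windows. Python 3.11.15, pandas 2.3.3, numpy 2.4.6 and matplotlib 3.10.9 were used.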

Additional observations from a re-analysis of the deposited data

Results flagged for a closer look

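For 23 genes named above, the change with ISP-I differed between the lines by the interaction test (limma over all 12 libraries, adjusted over all genes). The 5 genes most like CYP24A1 were chosen by their pattern over the groups and are left out. The values are the H460 log2 fold change minus that of A549. More positive in H460 were DUSP10 (3.63, adjusted p = 5.24e-08), IL1RL1 (3.21, adjusted p = 3.89e-09), NR4A1 (2.36, adjusted p = 9.69e-08), NRIP1 (2.18, adjusted p = 0.000929), NCOA3 (2.0, adjusted p = 2.62e-05), COL5A1 (1.83, adjusted p = 7.77e-08), CDH1 (1.77, adjusted p = 6.78e-08), CYP1A1 (1.60, adjusted p = 8.04e-06), TXNIP (1.39, adjusted p = 1.02e-05), FGFR1 (1.29, adjusted p = 1.39e-06), DDX5 (1.28, adjusted p = 2.55e-05), CYP2S1 (1.27, adjusted p = 4.89e-05), PTHLH (1.22, adjusted p = 5.37e-05), KRT18 (1.14, adjusted p = 0.00133) and HBEGF (1.12, adjusted p = 0.000338). More negative were CYP4F2 (-1.69, adjusted p = 7.77e-08), NINJ1 (-1.65, adjusted p = 6.94e-05), ATP2B4 (-1.45, adjusted p = 1.85e-06), THRA (-1.40, adjusted p = 2.31e-06), NR1H3 (-1.35, adjusted p = 2.28e-06), LRP5 (-1.33, adjusted p = 4.44e-05), TBL1X (-1.22, adjusted p = 5.24e-06) and HDAC7 (-1.03, adjusted p = 1.98e-05).

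DUSP10, CYP1A1, TXNIP and HBEGF rose in both lines, and TBL1X, THRA and LRP5 fell in both, so for these the difference is one of size. NCOA3, NRIP1, FGFR1 and PTHLH were called in H460, with values of -0.25, -0.07, -0.06 and -0.05 in A549. NR4A1 and NR1H3 had opposite signs in the lines, at 1.80 and -1.10 in H460 and at -0.57 and 0.25 in A549. CDH1 and CYP4F2 had group means of at most 0.0185 FPKM in H460, and IL1RL1 of at most 0.0738 FPKM in A549, so these differences rest on 1 line. Under 14 alternatives (median-of-ratios scaling, a pseudocount of 0.1 and each library left out) 18 of the 23 were called throughout. TXNIP turned to -0.78 with a pseudocount of 0.1, its A549 control mean being 0.0830 FPKM, CYP2S1 was at 0.36 (adjusted p = 0.400) with that pseudocount, and HBEGF was at 0.97, under the fold, without H460 control library 1. KRT18 was at 0.97 without A549 control library 3. HDAC7 was at -0.79 with median-of-ratios scaling, at -0.97 without H460 ISP-I library 2 and at the fold itself without H460 control library 3.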

How the results depend on the processing

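The 5 genes kept their direction in all 100 values under alternatives, 10 of which moved by more than the spread. With a pseudocount of 1, the log2 ratio of CYP24A1 in H460 was -0.85 (-2.62 with 0.1) and that of CYP27B1 1.07 in H460 and 0.52 in A549. Median-of-ratios scaling and voom gave 1.56 and 1.57 for CYP27B1, 1.36 and 1.38 for VDR, and -0.84 by both for RXRA, all in H460. Leaving out 1 library gave -4.20 to -3.43 for CYP24A1 in H460 and -3.11 to -3.05 in A549, 0.80 to 1.16 for CYP27B1 in A549 and -0.42 to -0.07 for RXRB in A549. A pseudocount of 0.1 called 2322 genes higher and 3464 lower in H460, 1336 and 1062 in A549, 1451 and 2788 for the difference between lines and 1363 and 2251 between controls, with 2 supply genes and 7 other P450 genes in H460 and 2 RXR partner receptors in A549. Voom called 3106 genes higher in H460, and in A549 1354 higher and 1239 lower, and in the lists 2 supply genes, 10 receptors and 8 other P450 genes in H460 and 1 supply gene, 4 receptors, 14 VDR targets and 1 mineral gene in A549. Median-of-ratios scaling called 1298 and 825 genes for the difference between lines and 0 supply genes in H460. Receptor calls in A549 ranged from 1 to 2 on leaving out a library, 2 being without A549 control library 1. Of 432 values of named list genes, 424 kept their call, 8 in H460 lost it and 0 reversed. The causes were not tested. No paired analysis was possible because the column numbers run from 1 to 6 within a line, share none between control and ISP-I, and are not tied to the replicate numbers of the labels. Depth limits CYP24A1 in H460, where treated libraries held 2 to 6 reads, and RXRG.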
